A study of Mus musculus with 24 samples.

Results

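The proteasome subunit genes of the mouse liver were followed over circadian time in wild-type (WT) mice and in ΔRRE mice. Members were the genes whose name starts with Psm, one of the letters a to g and a digit, without names that contain -ps, and whose mean over all 24 libraries was at least 1 FPKM (fragments per kilobase of transcript and per mapped fragments of the library, a level per transcript length). Of 50 genes with such a name among the 54733 genes of the tables, 47 were members, and 11244 genes of all kinds reached that mean. Members were thus chosen by their name and their mean FPKM over all libraries, so the mean levels are a description, and the tests concern the time points and the genotypes, which that rule did not use, although the set was picked for study with earlier results of these data known. Poly(A) RNA was sequenced from livers of male C57BL/6 mice, with 12 WT and 12 ΔRRE libraries, 2 per genotype at each of 6 circadian times from CT2 to CT22. The ΔRRE mice were homozygous for a CRISPR-Cas9 deletion of both ROR response elements (RREs) in the 5′-UTR of Bmal1, named Arntl in the tables, and every tissue of these mice carries it. Per the methods, tissues for RNA came from mice 8 to 24 weeks old in constant darkness, collected every 4 h from 26 h after its start. One mutant line was used unless stated otherwise, so line and deletion cannot be told apart. The labels give no age and do not say that the 2 libraries of a group came from separate mice, so p-values measure the spread between these libraries.

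The proteasome degrades proteins that carry ubiquitin chains. Its 20S core is a stack of rings of alpha subunits (Psma) and beta subunits (Psmb), and the beta subunits of Psmb5, Psmb6 and Psmb7 hold the constitutive active sites. Interferon-gamma-inducible subunits (Psmb8, Psmb9 and Psmb10) take their place in the immunoproteasome, which shapes peptides for MHC class I. The 19S particle, with ATPases (Psmc) and non-ATPase subunits (Psmd), recognises, deubiquitinates and unfolds substrates. Other genes of the set encode the activators PA28 (Psme1, Psme2 and Psme3) and PA200 (Psme4), the inhibitor PI31 (Psmf1), and chaperones that assemble the core (Psmg1 to Psmg4) or the base of the 19S particle (Psmd5, Psmd9 and Psmd10).

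Levels spanned more than an order of magnitude among the members. Psmb6 (111 FPKM on average), Psmb4 (95.6) and Psmb7 (93.9) were the most abundant, all of them core beta subunits. The lowest were Psmd10 (3.32 FPKM), which encodes the chaperone gankyrin, Psme2b (4.93) and Psmb9 (6.82), and these were also the members nearest to the limit of 1 FPKM. Just outside it were the testis alpha subunit gene Psma8 (0.355 FPKM), Psmc3ip (0.226), which encodes a meiotic recombination factor and only shares the name's start, and the thymus subunit gene Psmb11, listed at 0 in every library. Psme2b is an intronless copy of Psme2, so reads of the pair may have been split between them and the value of Psme2b is uncertain. The inducible catalytic genes were far below their constitutive partners: Psmb8 averaged 13.1 FPKM against 87.2 for Psmb5, Psmb9 6.82 against 111 for Psmb6, and Psmb10 16.001 against 93.9 for Psmb7.

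Promoters were searched for 4 motifs in the 250 bases before each start (RefSeq, GRCm38.p6, both strands), where 40 members had 43 promoters in the table. The antioxidant response element core TGACNNNGC, which NFE2L1 and NFE2L2 bind, was in 5 of 43 (11.6%, beside 10.2% of 32851 promoters), CCAAT in 13 (30.2%, beside 33.8%), the E-box CACGTG, which CLOCK and BMAL1 bind, in 4 (9.30%, beside 6.02%) and the RRE core TAGGTCA in 2 (4.65%, beside 2.23%). The windows with the E-box and the RRE core follow, with the motif in capitals, since BMAL1 binds the E-box and the deletion removed RREs. Windows with the antioxidant element, known from proteasome genes, follow for Psmb5 and Psmb6, the constitutive catalytic genes with a match.
Psma4: ttctgcacagtcCACGTGggcagactgagc
Psmb10: gttcccaacgccCACGTGgtggcacgccca
Psmd9: tcatctgaaaacCACGTGgtctatctagcc
Psme3: ggctgcgcagggCACGTGctcatcctcccc
Psmc2: aatcacgatttTAGGTCAtcaactgagcta
Psmd6: gggcccaactcTGACCTAaagaaaaagggg
Psmb5: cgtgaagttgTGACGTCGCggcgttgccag
Psmb6: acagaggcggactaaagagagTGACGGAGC
Each line runs 5′ to 3′ on the strand of its gene. The first 4 hold the E-box, at chr9:54950707-54950736 (Psma4), chr8:105938491-105938520 (Psmb10), chr5:123228127-123228156 (Psmd9), chr11:101316157-101316186 (Psme3), which starts 140, 116, 51 and 44 bases before the RefSeq start. Those of Psmc2 (chr5:21786533-21786562) and Psmd6 (chr14:14121057-14121086) hold the RRE core, in Psmd6 as its reverse complement, and those of Psmb5 (chr14:54618023-54618052) and Psmb6 (chr11:70525327-70525356) the antioxidant core. No motif shown overlapped another of those searched. In GENCODE M21, which has longer transcripts of Psmd9 and Psmc2, both windows are intronic, and the other 6 lie before the gene. A match of letters is a description and not a bound site.

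Arntl ranged from 0.0919 to 13.2 FPKM over the WT libraries and from 2.096 to 4.21 FPKM over the ΔRRE libraries. Replicate pairs correlated at r = 0.955 to 0.974 on the log2 scale, across genes. Read counts were not used here, so the depth behind a value is unknown. Hepatocyte markers were abundant, at 29152 to 47237 FPKM summed over 4 genes, whereas T cell markers (2 genes) reached at most 0.736 FPKM and B cell markers (2 genes) at most 1.86 FPKM. Some libraries stood apart. The 31 genes of the core and the 19S particle, leaving out the inducible subunits, summed to 1985 and 1961 FPKM in WT CT2 replicate 1 and WT CT6 replicate 1, to 1911 FPKM in ΔRRE CT6 replicate 1 and to between 1457 and 1764 FPKM in the other 21. Summed haemoglobin markers (Hbb-bs and Hba-a1) were 2765 FPKM in ΔRRE CT14 replicate 1 and 2712 FPKM in ΔRRE CT10 replicate 1, against at most 1206 FPKM elsewhere. Calls of the 24-h wave were therefore also computed without the first pair of libraries and without the pair with the highest haemoglobin sums. A shared 24-h wave was called by limma in all 3 stellate cell markers, 2 of 4 endothelial markers, 2 of 4 hepatocyte markers (Ttr, adjusted p = 0.0143, and Apoa1, 0.0401) and the 1 bile duct marker tested (Krt19, 0.0423). The stellate sum was 47.1 to 69.8 FPKM at CT2, highest in WT CT2 replicate 1, and 25.3 to 36.5 FPKM at CT10. The part of these cells in the results was not tested.

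**Figure D1:**
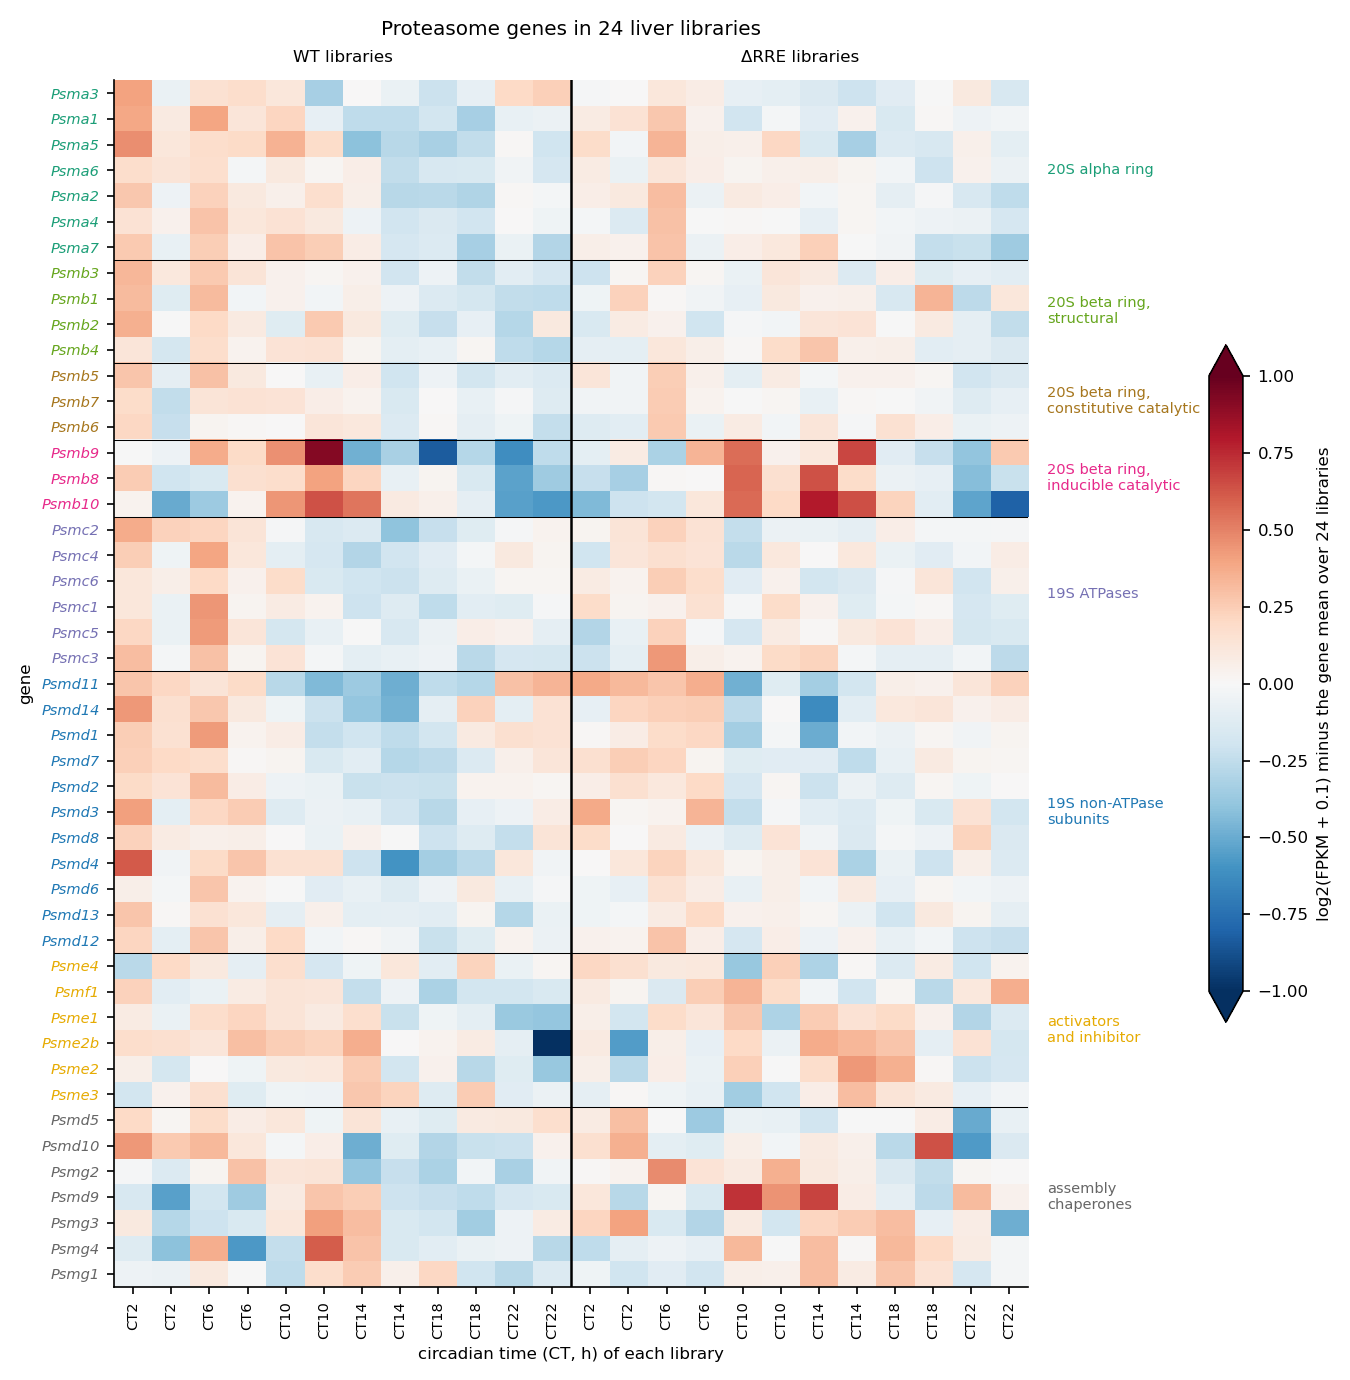
Colour gives log2(FPKM + 0.1) minus the mean of the gene over 24 libraries, for 47 members in rows, coloured by role, and libraries in columns, WT on the left and ΔRRE on the right, ordered by circadian time with both replicates side by side. Most core and 19S genes are red at CT6 and in WT CT2 replicate 1, and they are mixed in the other CT2 libraries. Psmb10 is red at CT10 and CT14, and so is Psmb8 in most of these libraries.

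Over the day, members of the 19S particle, the alpha ring and the inducible catalytic subunits changed along a wave fitted jointly to both genotypes. A 24-h cosine wave shared by the genotypes was fitted to log2(FPKM + 0.1) with limma, and 26 of 47 members passed at a Benjamini-Hochberg adjusted p under 0.05 over all 11244 genes, which is 55.3% of the members beside 30.6% of all genes. The waves were shallow: the amplitude, that is the log2 distance of the fitted peak from the mean of the wave, had a median of 0.14 over the members, against 0.17 over all genes, and ran from 0.043 to 0.54. Peaks fell in the first part of the circadian day. Of the 26 members called, 8 peaked between CT0 and CT4, 11 between CT4 and CT8, 6 between CT8 and CT12 and 1, Psme2, just after CT12, so that 25 of 26 (96.2%) peaked in the subjective day beside 60.7% of the 3437 genes called. That count depends on the edge at CT12, since Psmb10 (CT11.96) and Psmd9 (CT11.86) peaked before it by less than their SE. After rescaling the libraries to a common median, 23 members were called. Of these, Psmb10 (CT12.11), Psmd9 (CT12.23), Psme2 (CT12.52) and Psmg1 (CT14.45) peaked after CT12. As plain means over the 4 libraries of a time point, 24 members were highest at CT6 and 23 were lowest at CT22, the time of the highest mean for 14.1% and of the lowest for 19.9% of all genes. The highest mean exceeded the lowest by a median of 1.28-fold, against 1.41-fold over all genes. In 35 members the 4 libraries at the highest time point lay wholly above the 4 at the lowest, as they did in 46.2% of all genes. With time point as an unordered factor, 19 members were called by limma, 40.4% beside 26.6% of all genes, with the smallest adjusted p for Psmd11 (9.73e-06), Psmb10 (5.58e-05), Psma5 (0.00107), Psmd14 (0.00262), Psmd7 (0.00459) and Psmb8 (0.00576).

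**Figure D2:**
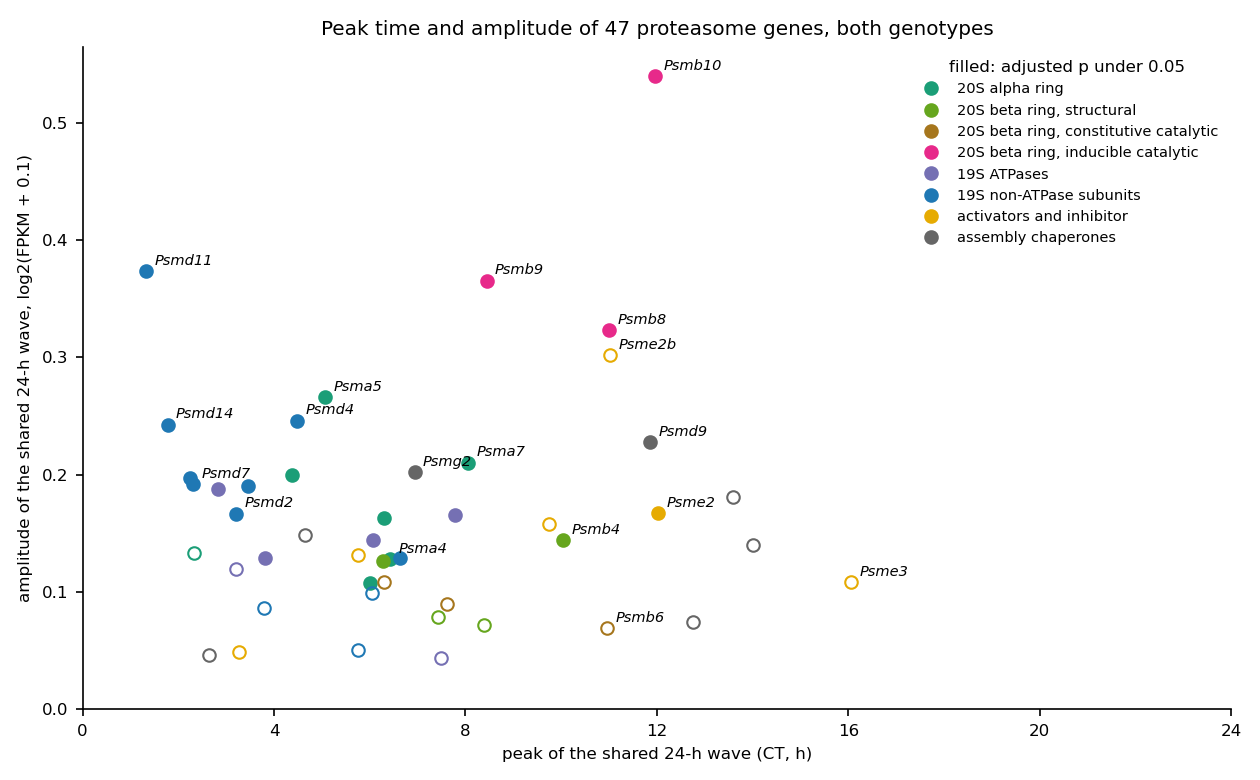
Each circle is one of 47 members, with the peak of the 24-h wave shared by both genotypes in hours of circadian time on the x axis and its amplitude in log2(FPKM + 0.1) on the y axis, coloured by role and filled where the adjusted p was under 0.05. Filled 19S genes lie between CT1.3 and CT7.8, filled alpha ring genes between CT4.4 and CT8.1, and the inducible catalytic genes at or after CT8.4 with amplitudes of 0.32 to 0.54.

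Among the members called, the earliest peaks were those of genes of the 19S particle. Of 11 non-ATPase subunits, 8 carried the shared wave, with peaks from CT1.33 to CT6.63 (median CT2.8), and of 6 ATPases, 4 did, with peaks from CT2.82 to CT7.79. Psmd11 (chr11:80428615-80473248, plus strand, GRCm38) had the smallest p of all members. It encodes RPN6, a scaffold that clamps the 19S particle onto the core. Psmd11 was, in FPKM, at 39.97 and 38.2 at CT2, 36.1 and 37.6 at CT6, 27.2 and 24.3 at CT10, 25.6 and 23.5 at CT14, 27.7 and 27.1 at CT18 and 40.4 and 41.8 at CT22 in the WT libraries. Its FPKM in the ΔRRE libraries were 42.9 and 41.3 at CT2, 40.04 and 42.6 at CT6, 23.7 and 30.4 at CT10, 26.05 and 28.99 at CT14, 34.4 and 33.9 at CT18 and 35.8 and 38.8 at CT22. All 12 libraries at CT22, CT2 and CT6 were above all 12 at CT10, CT14 and CT18 in both genotypes together. The shared wave had amplitude 0.37 ± 0.04 (SE), peak at CT1.33 ± 0.409 h, fitted peak-to-trough ratio 1.68, adjusted p = 1.35e-06 (limma).

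Psmd7 (chr8:107580381-107588464, minus strand) encodes RPN8, the partner of the deubiquitinase RPN11 in the lid of the 19S particle. WT livers had Psmd7 levels, in FPKM, of 46.96 and 45.7 at CT2, 44.9 and 40.2 at CT6, 40.5 and 35.9 at CT10, 36.9 and 32.7 at CT14, 33.2 and 36.3 at CT18 and 41.3 and 43.3 at CT22. Levels of Psmd7 in ΔRRE livers were 44.6 and 47.1 at CT2, 46.3 and 40.5 at CT6, 36.5 and 36.7 at CT10, 36.9 and 33.3 at CT14, 37.8 and 42.5 at CT18 and 40.6 and 40.4 at CT22. The 4 libraries at CT2 were above all 8 at CT14 and CT18, and the genotypes overlapped at most times. Its shared wave had amplitude 0.19 ± 0.031 (SE), peak at CT2.32 ± 0.616 h, fitted peak-to-trough ratio 1.31, adjusted p = 2.57e-04 (limma). Psmd14, which encodes RPN11 itself, peaked at CT1.78 with an amplitude of 0.24 ± 0.056 (SE), limma adjusted p = 0.00689. Psmd2, a scaffold of the base that binds ubiquitin-like domains (RPN1), ranged from 42.8 to 62.0 FPKM, and its wave had amplitude 0.17 ± 0.031 (SE), peak at CT3.20 ± 0.711 h, fitted peak-to-trough ratio 1.26, adjusted p = 0.00108 (limma). Its partner scaffold Psmd1 (RPN2) peaked at CT2.25 and the ubiquitin receptor Psmd4 (RPN10) at CT4.49, with amplitudes of 0.20 and 0.25. Psmd6, Psmd8 and Psmd13 did not pass, with amplitudes of 0.05 to 0.10. Among the ATPases, Psmc2 had an amplitude of 0.19 and limma adjusted p = 0.00186, whereas Psmc5 had the smallest amplitude of all members, 0.043, with adjusted p = 0.758.

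Of the 7 alpha ring genes, 6 were called, with peaks from CT4.37 to CT8.05 (median CT6.1) and amplitudes of 0.11 to 0.27, and Psma3 missed the threshold with limma adjusted p = 0.0504. Their peak times overlapped those of the 19S genes, and a difference in peak time between the groups was not tested. In WT, Psma5 stood, in FPKM, at 51.1 and 40.1 at CT2, 41.8 and 42.4 at CT6, 47.1 and 42.1 at CT10, 27.9 and 30.5 at CT14, 29.5 and 31.2 at CT18 and 37.3 and 32.2 at CT22. In ΔRRE it stood at 42.1 and 36.2 at CT2, 46.8 and 38.7 at CT6, 38.3 and 42.6 at CT10, 33.4 and 29.3 at CT14, 33.6 and 33.2 at CT18 and 38.2 and 34.7 at CT22. All 12 libraries at CT2, CT6 and CT10 were at or above 36.2 FPKM, and of the 12 others only WT CT22 replicate 1 and ΔRRE CT22 replicate 1 reached that level. The shared wave of Psma5 (chr3:108256926-108279974, plus strand) had amplitude 0.27 ± 0.044 (SE), peak at CT5.07 ± 0.635 h, fitted peak-to-trough ratio 1.45, adjusted p = 3.64e-04 (limma). Psma7 peaked latest in this ring, with amplitude 0.21 and limma adjusted p = 0.00212.

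The structural and the constitutive catalytic beta genes had median amplitudes of 0.10 and 0.089, against 0.16 in the alpha ring, a difference that was not tested. Among the structural subunits, Psmb4 peaked at CT10.05 (amplitude 0.14, limma adjusted p = 0.007003) and Psmb3 at CT6.28 (amplitude 0.13, adjusted p = 0.0481), whereas Psmb1 and Psmb2 did not pass. None of the 3 constitutive catalytic genes was called by limma, at adjusted p = 0.0865 for Psmb5, 0.105 for Psmb7 and 0.331 for Psmb6, although Psmb5 and Psmb7 had unadjusted p of 0.0325 and 0.0423 and Psmb7 was called in 1 of 33 alternative settings. Their amplitudes were 0.11, 0.089 and 0.069. Psmb6 ranged from 94.2 to 133 FPKM.

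The 3 inducible catalytic genes had 3 of the 4 largest amplitudes of the set, and all 3 carried the shared wave. Psmb8 and Psmb10 peaked after all genes of the 19S particle and the alpha ring that were called. Psmb9 did so by less than its SE, at CT8.44 ± 0.9804 h against CT8.05 ± 0.766 h for Psma7. A difference in peak time between these groups was not tested. Psmb10 (chr8:105935735-105938444, minus strand), which encodes the inducible beta2 subunit, changed most. Psmb10 was, in FPKM, at 15.6 and 10.7 at CT2, 11.8 and 15.6 at CT6, 20.8 and 23.8 at CT10, 22.2 and 16.2 at CT14, 15.8 and 14.3 at CT18 and 10.4 and 10.3 at CT22 in the WT libraries. Its FPKM in the ΔRRE libraries were 11.2 and 13.2 at CT2, 13.4 and 16.6 at CT6, 22.6 and 17.6 at CT10, 26.6 and 23.9 at CT14, 17.8 and 14.2 at CT18 and 10.6 and 8.67 at CT22. The 8 libraries at CT10 and CT14 lay between 16.2 and 26.6 FPKM, and the 4 at CT22 between 8.67 and 10.6 FPKM, below every library of the other time points. Its shared wave had amplitude 0.54 ± 0.066 (SE), peak at CT11.96 ± 0.465 h, fitted peak-to-trough ratio 2.11, adjusted p = 8.13e-06 (limma). Psmb8 (chr17:34197721-34201454, plus strand) encodes the inducible beta5 subunit. WT livers had Psmb8 levels, in FPKM, of 15.4 and 11.2 at CT2, 11.6 and 14.4 at CT6, 14.6 and 17.1 at CT10, 14.9 and 12.2 at CT14, 13.1 and 11.6 at CT18 and 8.86 and 10.01 at CT22. Levels of Psmb8 in ΔRRE livers were 10.97 and 10.2 at CT2, 12.97 and 12.9 at CT6, 19.3 and 14.4 at CT10, 20.04 and 14.6 at CT14, 12.3 and 12.1 at CT18 and 9.57 and 11.01 at CT22. Its highest values were in ΔRRE CT14 replicate 1 and ΔRRE CT10 replicate 1, the libraries with the highest haemoglobin sums, and its 3 lowest values were at CT22. The shared wave of Psmb8 had amplitude 0.32 ± 0.057 (SE), peak at CT11.01 ± 0.672 h, fitted peak-to-trough ratio 1.57, adjusted p = 6.33e-04 (limma). Psmb9 (chr17:34181987-34187764, minus strand) encodes the inducible beta1 subunit. In WT, Psmb9 stood, in FPKM, at 6.53 and 6.32 at CT2, 8.46 and 7.46 at CT6, 9.02 and 12.4 at CT10, 4.66 and 5.19 at CT14, 3.62 and 5.36 at CT18 and 4.22 and 5.47 at CT22. In ΔRRE it stood at 6.09 and 6.92 at CT2, 5.24 and 8.31 at CT6, 9.69 and 6.74 at CT10, 7.03 and 10.5 at CT14, 6.04 and 5.55 at CT18 and 4.94 and 7.86 at CT22. Replicates of Psmb9 differed as much as 7.03 and 10.5 FPKM at CT14 in ΔRRE, and its shared wave had amplitude 0.37 ± 0.094 (SE), peak at CT8.44 ± 0.9804 h, fitted peak-to-trough ratio 1.66, adjusted p = 0.0145 (limma). Without the libraries with the highest haemoglobin sums, all 3 waves still passed, with limma adjusted p of 9.20e-05 for Psmb10, 0.00291 for Psmb8 and 0.0351 for Psmb9 and amplitudes of 0.50, 0.26 and 0.35. Immune cells express these genes strongly, and in bulk tissue more cells of a type and more RNA per cell cannot be told apart. None of the 5 Kupffer cell markers, of which Clec4f, Cd5l and Vsig4 were the most abundant, carried the shared wave by limma (0 at an unadjusted p under 0.05). Their sum was 20.04 to 45.2 FPKM at CT10, 17.6 to 36.4 FPKM at CT14 and 26.9 to 61.9 FPKM at CT2. It was 12.1 to 41.3 FPKM at CT22, where the means of Psmb8 and Psmb10 were lowest. At CT18, where that of Psmb9 was lowest, it was 24.8 to 56.7 FPKM. Of the 2 neutrophil markers, S100a8 was below 1 FPKM. S100a9 had amplitude 1.07, peak at CT5.12 and limma adjusted p = 0.0581 (unadjusted p = 0.0188). The neutrophil sum was 0.412 to 2.83 FPKM at CT10, 0.710 to 11.03 FPKM at CT14 and 2.55 to 6.12 FPKM at CT2. It was 0.471 to 1.19 FPKM at CT18 and 0.183 to 5.09 FPKM at CT22. The part of Kupffer cells, neutrophils and other cell types in these waves was not tested.

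**Figure D3:**
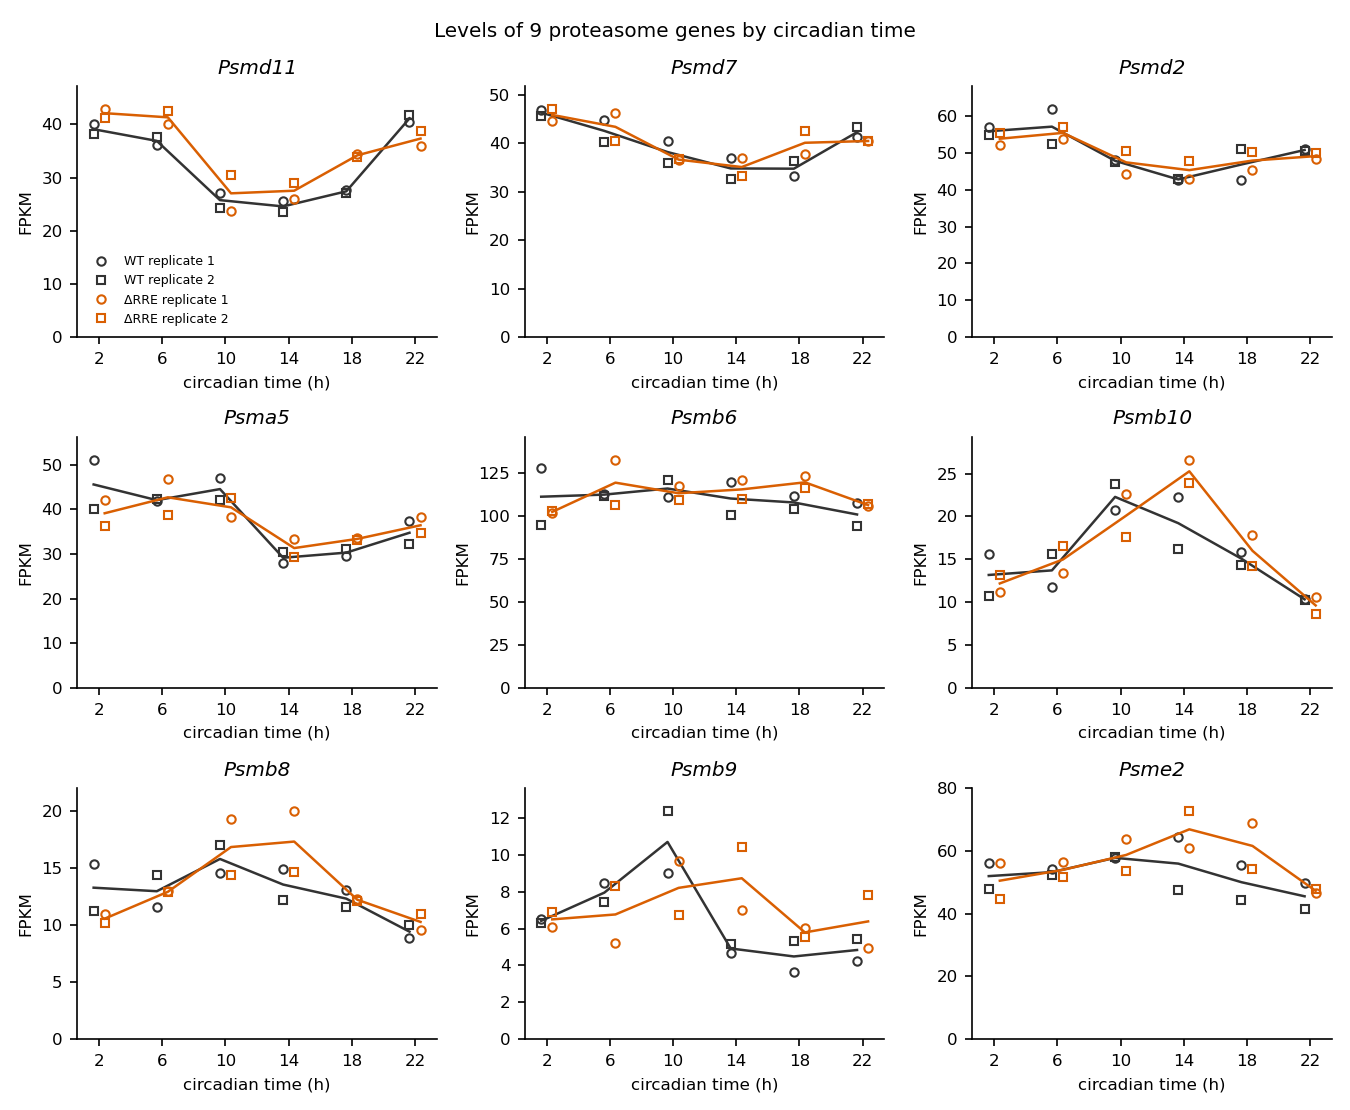
FPKM against circadian time in hours for 9 members, with open circles for replicate 1 and open squares for replicate 2 of WT (black) and ΔRRE (orange), shifted slightly apart, and lines through the means of 2 libraries. Psmd11 is lowest from CT10 to CT18, Psmb10 is highest at CT10 and CT14, and Psmb6 lies between 94.2 and 133 FPKM.

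The share of inducible over constitutive catalytic transcripts moved with these waves, as a ratio of FPKM within each library. Means and SDs pool the 2 WT and 2 ΔRRE libraries of a time point, so the SD also holds any difference between the genotypes. Psmb10 was 11.3% ± 1.13 (SD, n = 4) of Psmb7 at CT22 and 24.5% ± 4.46 (SD, n = 4) at CT14, and the ranges, 9.81 to 12.4% and 19.3 to 29.97%, did not overlap. For Psmb8 relative to Psmb5, the means were 12.6% ± 1.25 (SD, n = 4) at CT22 and 19.2% ± 3.79 (SD, n = 4) at CT10. Psmb9 relative to Psmb6 went from 4.51% ± 0.858 (SD, n = 4) at CT18 to 8.19% ± 1.67 (SD, n = 4) at CT10, again without overlap between these time points. The time points were picked as the extremes of each ratio, so these values are a description.

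**Figure D4:**
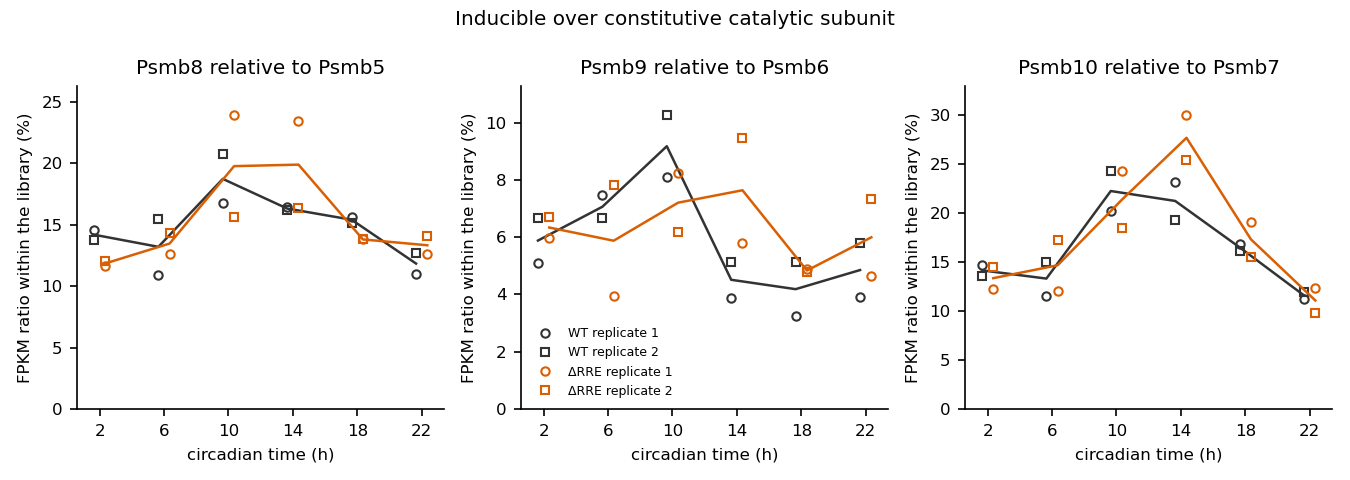
FPKM of an inducible catalytic gene as a percentage of its constitutive partner in the same library, against circadian time in hours, with circles and squares for replicates 1 and 2 of WT (black) and ΔRRE (orange) and lines through the means of 2 libraries. Psmb10 relative to Psmb7 runs from 9.81% in a CT22 library to 29.97% in a CT14 library.

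A shared 24-h wave was called in 1 of 6 activator and inhibitor genes and 2 of 7 chaperone genes, beside 30.6% of all genes, and no difference from that share was tested. Among the activators Psme2 (PA28 beta) was called, with amplitude 0.17 ± 0.048 (SE), peak at CT12.02 ± 1.104 h, fitted peak-to-trough ratio 1.26, adjusted p = 0.0304 (limma), and the call was lost in 9 of 33 alternative settings. Psme1 (PA28 alpha) was not called, at limma adjusted p = 0.0598, with a peak at CT9.75, and neither were Psme3 (PA28 gamma, peak at CT16.05, adjusted p = 0.163), Psme4 (PA200, adjusted p = 0.749), Psmf1 (PI31, adjusted p = 0.119) and Psme2b (adjusted p = 0.173). Psme1 was called in 4 of the 33 alternative settings, with an adjusted p from 0.00384 to 0.142 over them, and Psmf1 in 2. Of the 7 chaperone genes, Psmg2 (PAC2) peaked at CT6.94 with amplitude 0.20 (limma adjusted p = 0.00419), and Psmd9 (p27) peaked at CT11.86 with amplitude 0.23 (adjusted p = 0.04303). Without the libraries with the highest haemoglobin sums, Psmd9 was no longer called (limma adjusted p = 0.205). A 12-h wave, tested because liver genes can have such a period, was called in 0 members by limma beside 3.05% of all genes, with 5 members (10.6%) at an unadjusted p under 0.05, beside 19.1% of all genes. The smallest p values were those of Psmd9 (amplitude 0.22, peaks at CT10.92 and CT22.92, adjusted p = 0.0578), Psmd14 (adjusted p = 0.138) and Psme3 (adjusted p = 0.177).

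Among the genes whose promoter windows are shown above, 3 of the 4 with an E-box, Psmb10, Psmd9 and Psma4 carried the shared wave, with peaks at CT11.96, CT11.86 and CT6.43, and Psme3 did not, beside 55.3% of all members called, so the count is a description and no link between motif and wave was tested. Of those with the RRE core, Psmc2 did and Psmd6 did not. Mean levels of Psmc2 in ΔRRE and WT differed by 0.016 ± 0.052 (SE) on the log2 scale. Its amplitude was 0.27 in WT and 0.10 in ΔRRE. The rhythm difference had limma p = 0.0594 (adjusted p = 0.9999) and an exact permutation p of 0.0192 before adjustment.

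Each genotype on its own gave fewer calls. In WT, 10 members carried a 24-h wave by limma (21.3%, beside 10.3% of all genes), namely Psmd11, Psmb9, Psmb10, Psmc2, Psma1, Psma5, Psmd4, Psmd7, Psmd10 and Psma4. The smallest adjusted p was 0.00172 for Psmd11 (amplitude 0.41), followed by 0.0131 for Psmc2 (0.27), 0.0167 for Psmb9 (0.57), 0.0174 for Psma1 (0.29), 0.0186 for Psmb10 (0.48) and 0.0221 for Psma5 (0.33). Without WT CT2 replicate 1 and WT CT6 replicate 1, the libraries with the highest core and 19S sums, 2 members remained called in WT, Psmd11 and Psmb10, beside 5.29% of all genes. There, 17 members had an unadjusted p under 0.05, beside 21.9% of all genes. In ΔRRE, 3 members were called (6.38%, beside 4.57% of all genes): Psmb10 (amplitude 0.61, peak at CT12.19, limma adjusted p = 0.00692), Psmb8 (amplitude 0.40, peak at CT11.74, adjusted p = 0.0168) and Psmd11 (amplitude 0.33, peak at CT1.33, adjusted p = 0.0324). Without ΔRRE CT10 replicate 1 and CT14 replicate 1, the libraries with the highest haemoglobin sums, 0 members were called in ΔRRE by limma, beside 1.55% of all genes. There, 13 members had an unadjusted p under 0.05, beside 17.0% of all genes. With the rhythm criteria in the study's methods, applied to the p of this wave (p under 0.3, highest mean over 1.5 times the lowest, and a limit on the SD), 9 members were rhythmic in WT (19.1%, beside 37% of all genes) and 6 in ΔRRE (12.8%, beside 35.4%). Psmb10, Psmb8, Psmb9, Psmd11 and Psmd14 met them in both genotypes, Psma5, Psmd4, Psmd10 and Psme2b in WT, and Psmd9 in ΔRRE. These criteria ask for a ratio that few members reached: at a ratio of 1.2, 39 members in WT and 32 in ΔRRE met them, beside 57.6% and 54.7% of all genes.

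The comparison of the genotypes asked whether deleting the RREs of Bmal1 changes the level or the time course of these genes. No member differed in mean level at an adjusted p under 0.05 (limma), nor did any of the 11244 genes (0%), and 3 members had an unadjusted p under 0.05, 6.38% beside 8.91% of all genes. Psmd9 was higher in ΔRRE by 0.27 ± 0.079 (SE) on the log2 scale (limma adjusted p = 0.343). Psmd9 was, in FPKM, at 10.5 and 7.96 at CT2, 10.3 and 9.11 at CT6, 12.4 and 14.2 at CT10, 13.9 and 10.1 at CT14, 9.91 and 9.75 at CT18 and 10.4 and 10.5 at CT22 in the WT libraries. Its FPKM in the ΔRRE libraries were 12.6 and 9.62 at CT2, 11.9 and 10.5 at CT6, 19.3 and 16.001 at CT10, 18.7 and 12.3 at CT14, 10.96 and 9.704 at CT18 and 14.6 and 11.998 at CT22. Its highest values were in ΔRRE CT10 replicate 1 and CT14 replicate 1, the libraries with the highest haemoglobin sums, and without them its unadjusted limma p was 0.0119 and its difference 0.21. Its ΔRRE mean was above the WT mean at all 6 time points, by 0.069 (CT18) to 0.40 (CT10) on the log2 scale. A two-sided exact permutation test over all 46656 divisions of the libraries within time points gave p = 0.00253 for Psmd9, 0.0211 for Psmg2 and 0.0341 for Psmd11, before any adjustment, and 4.29e-05 is the smallest p it can give. Psmg2 was higher in ΔRRE by 0.15 ± 0.062 (SE) and Psmd11 by 0.11 ± 0.052 (SE), with limma adjusted p of 0.483 and 0.543. Exons of Psmd9 share 1849 bases with an antisense lincRNA, Gm26745, and reads of this pair cannot be told apart if the counting did not use strand, which is not stated. Over the members, 31 were higher and 16 lower in ΔRRE with a median of 0.017, against 0.037 over all genes. After rescaling by the median of ratios, 12 were higher and 35 lower with a median of -0.024, so the direction of the set depended on the scaling.

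At single time points, 0 members differed between the genotypes by limma, beside 0.00889% of all genes at CT2 and CT18, 0.0178% at CT10, 0.0267% at CT14 and 0% at CT6 and CT22. Per time point, 0 to 3 members had an unadjusted p under 0.05, beside 2.57% (CT2) to 6.16% (CT10) of all genes. The smallest was that of Psmb9 at CT14 (higher in ΔRRE by 0.79 on the log2 scale, adjusted p = 0.906), followed by Psme2b at CT22 (adjusted p = 0.984) and Psmd11 at CT18 (adjusted p = 0.992). The difference of Psme2b rests on 1 library, WT CT22 replicate 2 at 1.01 FPKM, since WT CT22 replicate 1 (4.44 FPKM) lay between the ΔRRE libraries (5.23 and 4.18 FPKM). The signs were uneven at some times. At CT2, 12 of 47 members were higher in ΔRRE, beside 58.9% of all genes, and at CT14 and at CT18, 41 of 47 were, beside 58.4% and 67.6% of all genes. After rescaling, these counts were 8, 35 and 25, beside 50.4%, 49.8% and 48.1% of all genes. Members vary together within a library, so these counts are not independent observations.

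Amplitudes were also uneven between the genotypes. In 38 of 47 members the 24-h amplitude was smaller in ΔRRE than in WT, beside 53.7% of all genes, with a median over the members of 0.19 in WT and 0.13 in ΔRRE, against 0.20 and 0.19 over all genes. The count was 35 without the libraries with the highest core and 19S sums, beside 55.1% of all genes, and 32 after rescaling, beside 52.2%. After rescaling the medians over the members were 0.16 in WT and 0.13 in ΔRRE. The inducible genes Psmb8 and Psmb10 were among the 9 members with a larger amplitude in ΔRRE. The difference itself was not shown for any gene of the set: a test of the difference in cosine and sine between the genotypes called 0 members (1 gene of all, Arntl, 0.00889%), and 1 member (2.13%, beside 2.84% of all genes), Psmb9, had an unadjusted p under 0.05 (p = 0.03501 by limma, adjusted p = 0.9999, exact permutation p = 0.0539). Psmb9 had an amplitude of 0.57 with a peak at CT7.48 in WT and of 0.23 with a peak at CT11.03 in ΔRRE. Next in p were Psma1 (0.29 in WT and 0.11 in ΔRRE) and Psmb2 (0.16 and 0.10), with limma p of 0.0585 and 0.0594. In the exact permutation test, which was run on the members alone and so has no share over all genes beside it, 4 members were under 0.05 before adjustment, Psmc5 (p = 0.0154), Psmd10 (0.01899), Psmc2 (0.0192) and Psma1 (0.0421). The sum of the 31 core and 19S genes was highest at CT6 in both genotypes, where the WT mean was 1862 ± 139 FPKM and the ΔRRE mean 1822 ± 125 FPKM (SD over 2 libraries). The lowest mean of WT was 1521 ± 15.8 FPKM, at CT18, and that of ΔRRE was 1577 ± 25.6 FPKM, at CT22. At CT18 the ΔRRE libraries summed to 1643 and 1636 FPKM, above both WT libraries (1509.8 and 1532), but after rescaling the sums were 1621 and 1576 in ΔRRE and 1664 and 1519.6 in WT, which overlap.

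**Figure D5:**
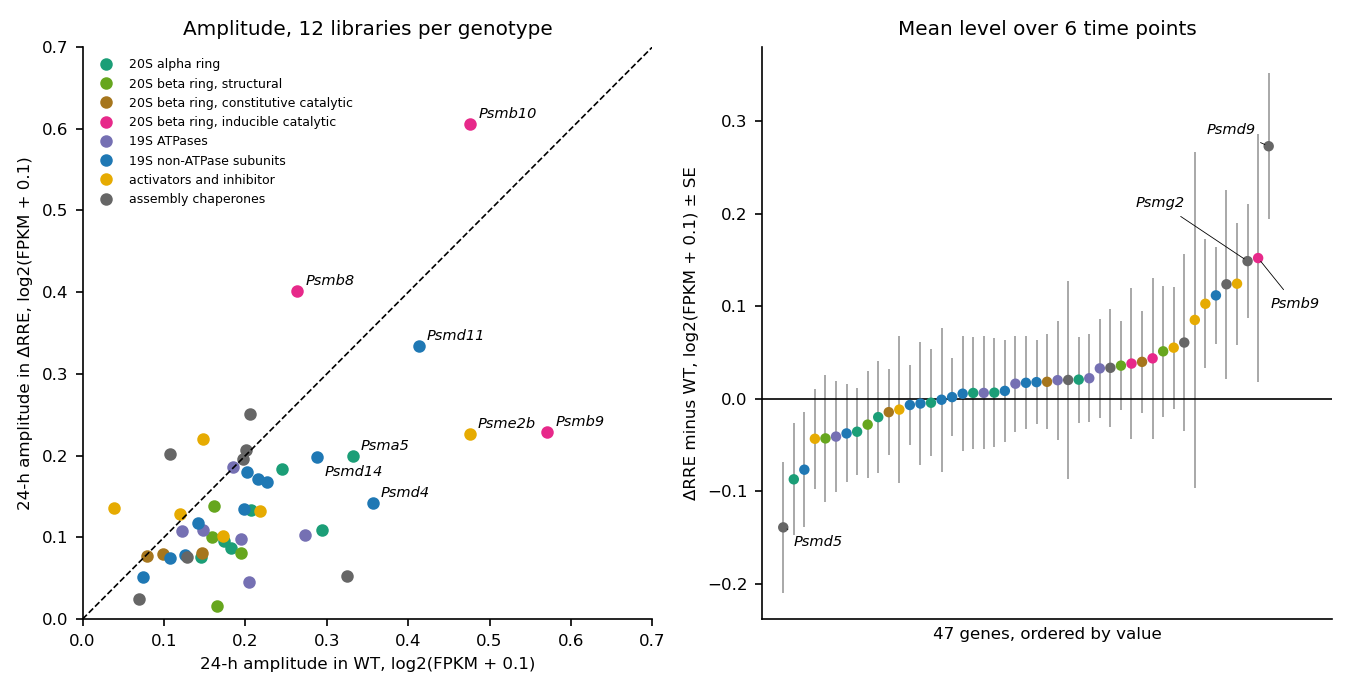
Left, 24-h amplitude in ΔRRE against that in WT in log2(FPKM + 0.1), one point per member coloured by role, with a dashed line of equality that 38 of 47 points lie under. Right, ΔRRE minus WT in log2(FPKM + 0.1) averaged over 6 time points, ± SE, with members ordered by value from -0.14 (Psmd5) to 0.27 (Psmd9).

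Core and 19S genes varied together from library to library. The correlation of each of the 31 genes with the mean of the other 30, over 24 libraries that share time points, had a median of 0.68 and ran from 0.34 (Psmb6) to 0.90, and it exceeded 0.5 in 25 of 31, as it did with the mean of the 31 in 7.10% of all genes. Of the 16 other members, 1 exceeded 0.5. For the inducible catalytic genes the correlations with the core and 19S mean were between -0.14 and 0.26. Psmb8 correlated with Psmb10 at 0.87, with Psme1 at 0.70 and with Psme2 at 0.66, and Psmb9 with Tap2, which encodes a peptide transporter subunit, at 0.70. Other pairs were lower: Psmb9 correlated with Psmb8 at 0.50 and with Psmb10 at 0.42. Tap1 correlated with Psmb8 at 0.13, with Psmb10 at 0.065 and with Psmb9 at 0.55. Genes outside the set most like the core and 19S mean were Anapc2 (r = 0.82), Gstm4 (0.82), Gsr (0.81), Pitpnb (0.80), Ppp1ca (0.78), Eepd1 (0.77), Ptbp2 (0.77), Sgk2 (0.77), Igsf11 (0.77) and Rffl (0.76), ranked by Pearson's r over the 24 libraries and given as a description.

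Other genes of the pathway were described from lists by role. Of the 3 further subunit and assembly genes tested, Adrm1 (RPN13), Sem1 and Pomp, 0 carried the shared wave by limma, with adjusted p of 0.0825, 0.285 and 0.286. Of 9 regulators of proteasome genes, 0 did, including Nfe2l1, the transcription factor that restores proteasome genes after inhibition (adjusted p = 0.767), and its relative Nfe2l2 (adjusted p = 0.537). At an unadjusted p under 0.05 there were 1 and 2, beside 42.1% of all genes. Of 20 genes for ubiquitin supply and shuttling, 9 did, beside 30.6% of all genes. Zfand5, whose product activates the proteasome, peaked at CT1.17 (amplitude 0.36, limma adjusted p = 1.11e-04), the shuttle gene Rad23b at CT1.03 and the polyubiquitin gene Ubb at CT10.27, and Vcp peaked at CT3.50. Ubqln1, Zfand2a, Ubqln4 and Uba6 peaked later in the cycle, at CT23.76, CT17.10, CT18.28 and CT19.33. Of 12 antigen presentation genes, 2 did, Tap2 (peak at CT7.32, amplitude 0.34, limma adjusted p = 0.00391) and Nlrc5 (peak at CT9.80, amplitude 0.34, adjusted p = 0.0141), whereas the MHC class I genes H2-K1 and H2-D1 and B2m had amplitudes of 0.019, 0.057 and 0.0048. No gene of these lists differed in mean level between the genotypes at an adjusted p under 0.05 (limma).

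By position, the 47 members lay on 16 chromosomes of GRCm38 (GENCODE M21). Psme1 and Psme2 lie 5911 bases apart on chromosome 14, on opposite strands, and Psmb9 and Psmb8 lie 9956 bases apart in the MHC on chromosome 17. Exons of 11 members share bases with a gene on the opposite strand, among them Psmb9 with Tap1 (212 bases), Psmb8 with the antisense gene Gm20496 (498 bases) and Psmd13 with Sirt3 (342 bases), and reads of these pairs cannot be told apart if strand was not used.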

How the data were processed

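Poly(A) RNA from mouse liver was made into 24 directional libraries, and the authors deposited 1 table per library with FPKM for each gene, normalised for transcript length and mapped fragments. The submitters' processing notes name Trimmomatic 0.39, HISAT2 2.1.0, StringTie 1.3.5 and the build mm10. Whether counting used strand is not given in the sources used here. Read counts were not used, so depth is unknown. Genotype and circadian time in the labels set the groups. Values were taken as log2(FPKM + 0.1), which understates the change of low genes, and the 11244 genes averaging 1 FPKM or more were tested. limma 3.58.1 (R 4.3.3, intensity trend) was fitted over all of them with a cosine and a sine of a 24-h or 12-h period, time points as a factor, genotype, or genotype with the wave, and p was Benjamini-Hochberg adjusted over all genes. The study's BIO_CYCLE was not run, and its criteria were applied to the p of the wave. Exact permutation tests and ratios used Python 3.11.15 and scipy 1.17.1. The fits of the waves, of the genotype level and of the rhythm difference were tested on simulated data, and the other steps were not. Members and lists were chosen with earlier results of these data known. Named with values were the 3 highest and lowest members, the members called in a test (6 at most by p, or the 3 with the smallest p where none was called), catalytic pairs, activators, list genes called in a test and the 10 genes most like the core and 19S mean. One list gene called in a test is not reported here. Genes that illustrate a role were added after their values were seen. Alternatives changed the pseudocount, the filter, the scaling, the variance prior, a replicate block, the libraries left out and the rule for a call.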

Additional observations from a re-analysis of the deposited data

How the results depend on the processing

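The 26 members with a shared 24-h wave were 22 to 28 with one library left out, and the count stayed within 1.5 times of it in all other settings, at 21 without both libraries of the highest core and 19S sums, chosen after seeing the data, of which 19 were among the 26. The 10 members called in WT became 6 without a filter, 1 with time points as a factor, 6 with a ratio over 1.5 added and 2 without both libraries of the highest core and 19S sums. With one library left out they were 5 to 9, with 5 without WT CT18 replicate 1 and 6 without WT CT2 replicate 1, CT10 replicate 2, CT14 replicate 2 or CT22 replicate 2. The 3 called in ΔRRE became 1 without a filter, 1 with time points as a factor, 0 without both libraries of the highest haemoglobin sums (also chosen after seeing the data) and 2 to 3 with one library left out. The study's criteria gave 39 in WT and 32 in ΔRRE at a ratio of 1.2, 2 in ΔRRE without both libraries of the highest haemoglobin sums, 8 to 14 in WT (14 without WT CT6 replicate 2) and 4 to 7 in ΔRRE with one library left out. The 12-h wave called 1 member, Psmd9, at a mean of at least 5 FPKM, after rescaling, with the replicate block, and without WT CT14 replicate 2 or ΔRRE CT14 replicate 1 (0 to 1). Time points as a factor called 13 to 18 with one library left out. The rhythm and level differences stayed at 0 to 0, the single time points at 0 to 1 (1 without WT CT22 replicate 1, which leaves WT CT22 with 1 library that is assumed to vary like the other groups), and the median level difference at -0.0007 to 0.033. The cause of these changes was not tested. Deviations of same-numbered libraries correlated at -0.12 to 0.21 between the genotypes at the same time, over 0.1 in 2 of 6 pairs. Over all 66 pairs of groups they correlated at -0.14 to 0.30 (median 0.067), over 0.1 in 20. These values cannot decide whether replicate numbers pair the samples, and the labels do not say. With the replicate block, 11 members were called in WT, 3 in ΔRRE, 28 for the shared wave and 21 for time points as a factor, and 0 for the level and rhythm differences. Depth is unknown, and 2 libraries a group limit what a single time point can show.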
